A study of Arabidopsis thaliana with 18 samples.

Results

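Roots of potassium-starved Arabidopsis thaliana were compared with roots of control plants on 6 Affymetrix ATH1 arrays, 3 a group, out of 18 arrays in the series. The members were chosen by their sample titles, which name the treatment, the organ and the replicate number. All plants were of the Wassilewskija accession Ws-2 at developmental stage 3.90, grown on 0.8% agar with 1% sucrose and a dilute Murashige and Skoog salt mix at 22 °C, 80% humidity and a 16 h day, and the samples held all root material. Caesium-treated roots (3 arrays), and the shoots of potassium-starved and control plants (6 arrays), are used below for single comparisons. The sources used here do not give how or for how long potassium was withheld, nor whether replicates came from separate cultures. The p-values therefore set a difference between groups only against the variation of these samples within groups, and that variation may be technical.

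Potassium is the most abundant inorganic cation of plant cells and carries turgor, membrane potential and the activity of many enzymes. Roots take it up through channels and high-affinity carriers, whose activity is set by calcium-dependent kinases, and reactive oxygen, ethylene and jasmonate are known to take part in the response to shortage. Iron is mobilised in Arabidopsis roots partly by secreted coumarins, phenolic compounds that are made from feruloyl-CoA and then hydroxylated.

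Potassium-starved roots had more transcript of the coumarin hydroxylase gene AT3G12900, the asparaginase gene ASPGB1, the transcription factor gene WRKY22 and the defensin genes PDF2.1 and PDF1.4. Also higher were 6 further genes known to respond to iron supply, from a list written after the calls had been seen. The starved roots had less of the phosphoethanolamine methyltransferase gene AT1G73600, the wall-remodelling gene XTH19 and the wall acetylation family gene TBL41. Some of these calls were lost when single arrays were left out. A probe set is called here where its adjusted p, from limma with Benjamini-Hochberg adjustment, was under 0.05, and rose and fell are used of called genes. Of 14432 probe sets tested, 1.09% were called, 103 higher (0.714%) and 55 lower (0.381%). In all 158 the 3 starved and the 3 control signals did not overlap, which was so for 22.3% of all tested probe sets. Every level below is a MAS5 signal, a linear brightness with no unit, and every difference is on the log2 scale as starved minus control unless stated. In whole roots a lower signal can come from less RNA per cell or from fewer cells of a type, and the arrays cannot tell these apart.

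Arrays of 1 group among the starved and control roots correlated at 0.916 to 0.970 and arrays of different groups at 0.890 to 0.943. Root tissue markers PYK10, EXPA7 and EXPA18 summed to 2092 to 2981 in control and 2455 to 3630 in starved roots, above the 203 to 1253 of control and the 78.7 to 937 of starved shoots. The 7 shoot marker probe sets, of photosynthesis genes, summed to 184 to 350 in control roots and 239 to 411 in starved roots, against 15700 to 17310 in control shoots. None of their values was at 0. All 6 tested lay above 0 in starved minus control, beside 47.3% of all tested probe sets, and none was called, beside 1.09%. Their part in the results was not tested. The actin 3'/5' signal ratio, which is lower where RNA is more intact, was 5.41 to 7.19 in control and 3.95 to 5.61 in starved roots.

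AT3G12900 is the gene of scopoletin hydroxylase, a late enzyme of the coumarin pathway, and had signals of 948, 940 and 1007 on starved arrays of replicates 1, 2 and 3. On control arrays it had 132, 103 and 182. Every starved array lay far above every control array, and the starved arrays were close to each other. The difference was 2.84 ± 0.196 (SE), and limma gave an adjusted p of 0.000244, the lowest of the comparison.

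AT3G13610 encodes the feruloyl-CoA hydroxylase (F6'H1) that acts earlier in the same pathway. Its signals were 3497, 3573 and 3033 in starved and 1580, 1981 and 1640 in control roots, with no overlap. It rose by 0.96 ± 0.139 (SE, adjusted p = 0.0105 by limma), and the call was lost without potassium-starved replicate 2 (adjusted p = 0.0582). AT1G55290, a close relative of that hydroxylase gene, was not called (0.19 ± 0.147).

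A list of 57 loci known to respond to iron supply was written after the calls had been seen, 18 of its genes had a tested probe set, and 7 of 18 rose and none fell, beside 0.714% of all tested probe sets called higher. All 18 lay above 0, beside 47.3% of all tested probe sets, in 14 the starved signals were all above the control signals, beside 10.3%, and the list median was 1.195 against -0.03. Since some members were entered because they were called, these counts describe the list and support nothing further. A shorter iron deficiency and coumarin list, chosen with earlier results of these data known, had 8 tested genes. Of these, AT3G12900 and AT3G13610 rose and none fell, beside the same 0.714%. All 8 lay above 0 (7 after quantile normalization), and the median was 0.79. In 4 the starved signals were all above the control signals, beside 10.3%. These counts are a description as well.

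AT3G61930 had 404, 348 and 236 in starved and 77.5, 73.4 and 89.2 in control roots, and rose by 2.01 ± 0.207. AT5G38820, of the amino acid transporter family, had 281, 237 and 224 against 112, 87.1 and 96.6. AT1G74770, a relative of the iron-binding ubiquitin ligase BRUTUS, had 840, 624 and 932 against 286, 325 and 454. In each of these genes the lowest starved array lay above the highest control array. AT1G74770 rose by 1.18 ± 0.211, and its second, dimmer probe set had 1.25 ± 0.368 without a call (adjusted p = 0.12 by limma). AT3G07720 (1.23 ± 0.245) and AT3G06890 (0.83 ± 0.173) rose as well. The calls of AT3G61930 and AT5G38820 held without any single array, whereas that of AT1G74770 was lost without control replicate 1 or 2 or starved replicate 1 or 3, with adjusted p up to 0.131. AT3G07720 and AT3G06890 each kept the call without 1 of 6 arrays left out in turn, with adjusted p up to 0.107 and 0.164.

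Other iron genes gave values of similar size outside the threshold. The bHLH transcription factor gene PYE, which represses iron distribution genes, had 121, 115 and 126 in starved and 77.7, 71.5 and 84.3 in control roots (0.64 ± 0.148, adjusted p = 0.0672 by limma). AT3G58060, a metal transporter gene of the MTP family, had 99.0, 85.8 and 55.3 against 24.9, 33.02 and 42.6 (1.25 ± 0.278, adjusted p = 0.0595). AT1G73120 differed by 1.399 ± 0.332 (adjusted p = 0.0715) and BHLH101, a bHLH factor gene that rises in iron-deficient roots, by 1.21 ± 0.489 (adjusted p = 0.226). The groups overlapped for BHLH101 and not for the other 3. The bHLH genes ILR3 (0.03 ± 0.204) and bHLH121 (0.36 ± 0.196), which act upstream of these factors, were not called and their groups overlapped.

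**Figure D1:**
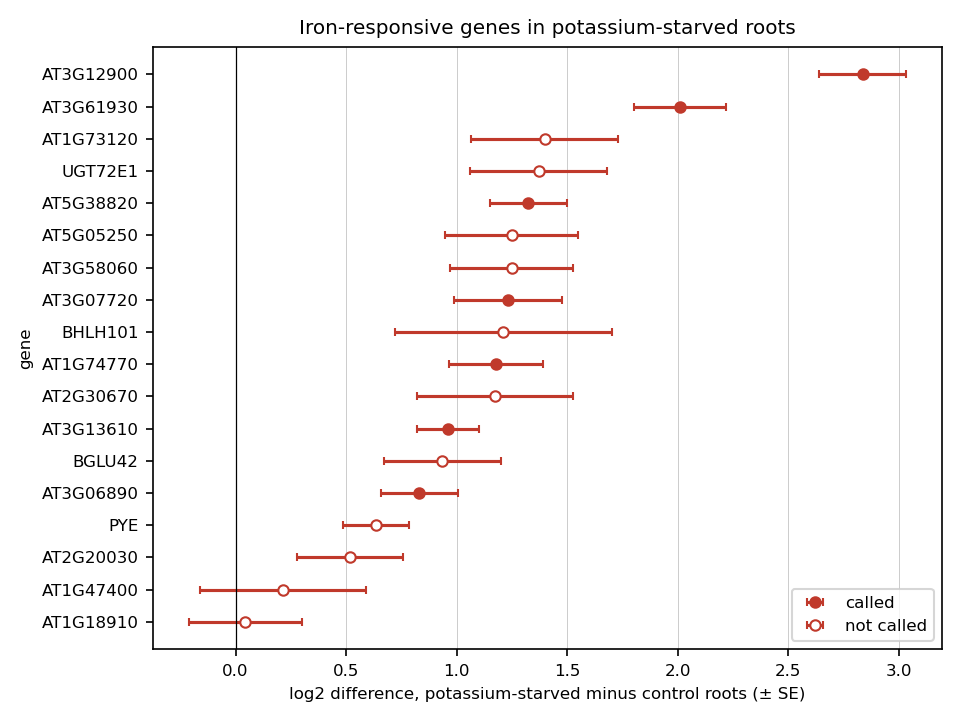
Log2 differences between potassium-starved and control roots (x axis) of the 18 tested genes of the iron-responsive list (y axis), as limma estimates with standard errors. Filled points are called and open points are not; all 18 lie above 0, from 0.04 for AT1G18910 to 2.84 for AT3G12900.

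Most of the listed iron genes were also higher in potassium-starved than in caesium-treated roots. AT3G12900 had 53.6, 58.7 and 49.5 on the caesium arrays, below every control array, and the starved minus caesium difference was 4.16 (adjusted p = 4.14e-06 by limma). AT3G61930 had 31.1, 40.4 and 37.7, also below every control array, and the difference was 3.15. Caesium minus control was not called for either gene (-1.33, adjusted p = 0.0733, and -1.14, adjusted p = 0.105, by limma). Of the 18 listed genes 12 were called higher in starved than in caesium-treated roots, a count made after the values were seen, beside 2.27% of all tested probe sets. This contrast shares the starved arrays with the one against control, so the 2 are not independent.

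Nitrogen metabolism was represented by the asparaginase gene ASPGB1, whose enzyme releases ammonium and aspartate from asparagine and is known to need potassium. It had signals of 478, 705 and 724 in starved and 180, 129 and 229 in control roots. The groups lay far apart, with starved replicate 1 the lowest of its group. The difference was 1.84 ± 0.233 (SE, adjusted p = 0.00923 by limma), and it stayed called without any single array. Its relative ASPGA1, which encodes the other asparaginase, had a difference of -0.28 ± 0.144 and was not called. GAT1_2.1, a glutamine amidotransferase-like gene, had 537, 495 and 379 against 134, 130 and 253 and rose by 1.502 ± 0.269, a call kept without 1 of the 6 arrays in turn. The list of nitrogen uptake and assimilation genes, matched by name, does not hold GAT1_2.1. Of its 11 tested genes, mostly of the NRT1/PTR family, ASPGB1 was the 1 that rose and none fell. Beside this, 0.714% of all tested probe sets were called higher and 0.381% lower. The list median was 0.15.

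Of 9 tested genes of the jasmonate and defence list 4 rose and none fell, beside 0.714% of all tested probe sets called higher. The list median was 0.86 against -0.03. All 9 are defensin-type, osmotin, chitinase or PR-1-like genes, so the count says nothing of jasmonate synthesis or signalling. The list was chosen with earlier results of these data known, so its counts are a description. PDF2.1, which encodes a small cysteine-rich defensin, had 374, 466 and 470 in starved and 155, 194 and 145 in control roots (1.41 ± 0.162). PDF1.4 had 91.9, 81.5 and 90.1 against 44.0, 30.5 and 40.8 (1.21 ± 0.174). For both genes every starved array lay well above every control array. LCR69, also named PDF2.2, rose by 0.86 ± 0.177, and the osmotin gene OSM34 by 0.79 ± 0.15 from 1378, 1445 and 1950 to 2513, 2913 and 2741. LCR69 lost its call whichever of the 6 arrays was left out (adjusted p 0.0529 to 0.156), PDF1.4 without starved replicate 3 (0.0673), and OSM34 without control replicate 1 or 2 or starved replicate 2 or 3 (up to 0.137).

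Other members of the list had either sign. PDF2.5 (-0.67 ± 0.196, adjusted p = 0.119 by limma) and LCR68 (-0.59 ± 0.201, 0.16) were lower in all 3 starved than in all 3 control arrays and were not called. The chitinase genes ChiC (0.89 ± 0.217, 0.0763) and CHI (1.08 ± 0.299, 0.105) lay higher without a call. LCR69 and PDF2.1 lie near each other on chromosome 2 with 1 protein-coding gene between them in the RefSeq order.

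Among regulators, WRKY22, a transcription factor gene of immune signalling, had 186, 235 and 194 in starved and 64.4, 77.2 and 88.9 in control roots. It rose by 1.42 ± 0.184 (SE, adjusted p = 0.00923 by limma), and no single array decided the call. WRKY53, a factor of senescence, had the opposite sign (-0.91 ± 0.235, adjusted p = 0.0912), and of 6 WRKY genes tested 1 rose, beside 0.714% of all tested probe sets, with a median of 0.05. AT2G28710, a C2H2 zinc finger gene, had 172, 178 and 168 against 58.2, 52.4 and 89.2 and rose by 1.41 ± 0.195. Without starved replicate 2 its adjusted p was 0.0509.

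The RING ubiquitin ligase gene ATL8 had 339, 252 and 241 in starved and 122, 89.4 and 116 in control roots (1.34 ± 0.177), and the F-box gene AT5G01720 had 249, 187 and 233 against 88.7, 86.3 and 72.7 (1.43 ± 0.157). Both calls held without any single array. The RING finger genes AT5G47050 and AT5G41400 rose by 1.22 and 1.21. The calcium-binding protein gene AT2G46600 rose from 603, 798 and 627 to 1436, 1993 and 1449 (1.26 ± 0.175), and AT5G66650, of the mitochondrial calcium uniporter family, by 1.53 ± 0.237. The calcium signalling list, matched by name, does not hold AT2G46600 or AT5G66650. None of its 6 tested genes was called, beside 1.09% of all tested probe sets. The 2 with the smallest p, both calmodulin-like, were CML41 (0.55 ± 0.221) and CML23 (0.50 ± 0.243).

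The small heat shock protein gene AT1G53540 had 65.7, 54.5 and 92.2 in starved and 9.64, 23.7 and 13.2 in control roots (2.26 ± 0.356). The control arrays lay wholly below their 40th percentile, so the size is uncertain, and with a pseudocount of 16 the difference was 1.46. NAMT1, a methyltransferase gene of nicotinate, had 44.0, 47.9 and 71.3 against 14.3, 13.1 and 14.9 (1.91 ± 0.308, or 1.205 with the pseudocount), again from control signals below that percentile. The linker histone gene HIS1-3, known from drought, had 274, 235 and 243 against 84.4, 81.5 and 123. The calls of AT1G53540, NAMT1 and HIS1-3 were each lost without starved replicate 2 or 3. AT5G38910, a germin-like gene, rose by 1.89 ± 0.358 from 22.2, 43.7 and 49.1 to 132, 99.3 and 185, and kept the call without 1 of the 6 arrays in turn. Its caesium signals of 126, 174 and 280 were not called different from the starved ones (difference -0.45 ± 0.358, adjusted p = 0.477).

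Further rises were AT4G33666 (1.73 ± 0.181), which stayed called without any single array, AT4G22610 of the lipid transfer protein family (1.71 ± 0.247), AT1G78780 (1.52 ± 0.263), AT2G41730 (2.14 ± 0.39) and SRC2 (1.02 ± 0.135). Without starved replicate 2 the adjusted p of AT4G22610 was 0.0594. AT2G41730 and AT1G78780 each kept the call without 2 of the 6 arrays in turn. The methionine gamma-lyase gene MGL, which breaks methionine down, rose by 1.28 ± 0.239 and the tropinone reductase-like gene TRI by 1.01 ± 0.194.

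**Figure D2:**
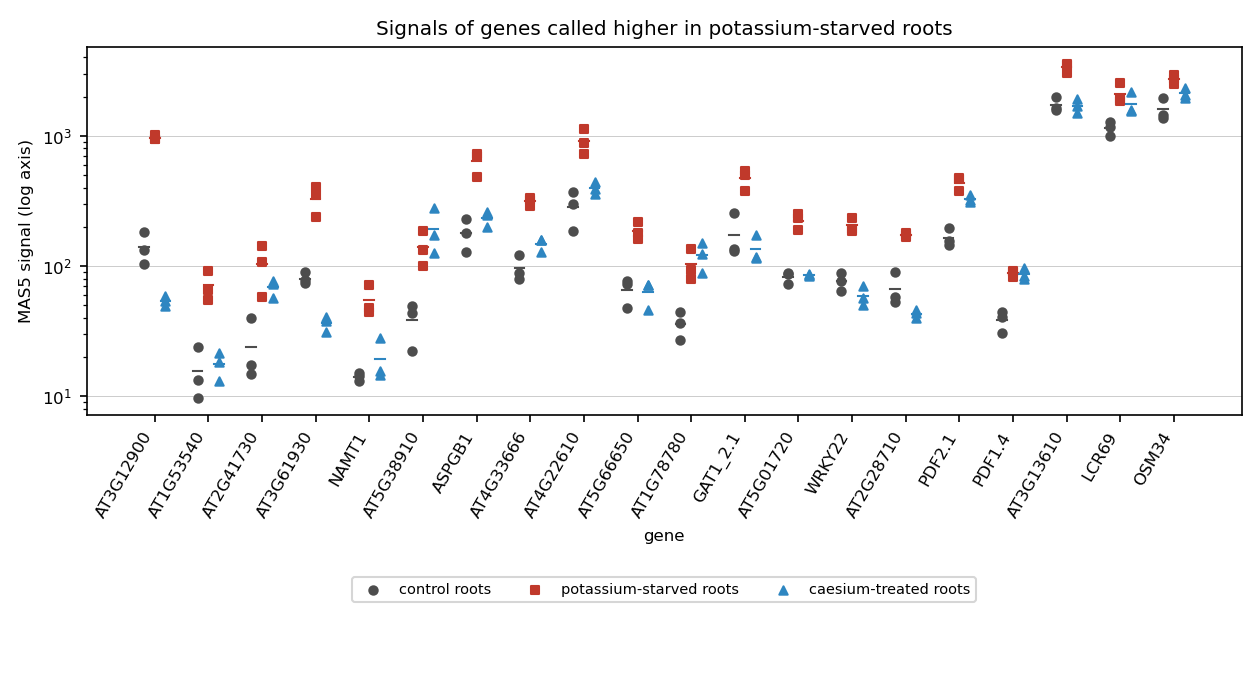
MAS5 signal on a log axis for 20 genes that rose under potassium starvation (x axis), with 1 point per array and a bar at the mean of 3 arrays for control, potassium-starved and caesium-treated roots. Starved and control points do not overlap in any gene. For AT3G12900 the caesium arrays at 49.5 to 58.7 lie below the controls, a difference that was not called.

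Among the named falls, AT1G73600 encodes a methyltransferase that makes phosphocholine, the head group of phosphatidylcholine. It had 78.2, 60.1 and 79.4 in starved and 200, 291 and 189 in control roots, a difference of -1.63 ± 0.206 (SE, adjusted p = 0.00923 by limma) that no single array decided. The related gene PMEAMT differed by -0.29 ± 0.17 and was not called. XTH19, whose enzyme cuts and rejoins xyloglucan, had 79.5, 40.8 and 49.5 against 154, 136 and 105 (-1.26 ± 0.244). TBL41, of a family that acetylates wall polysaccharides, had 20.5, 18.1 and 13.4 against 52.4, 43.0 and 39.6 (-1.39 ± 0.281, or -0.87 with the pseudocount), with starved signals below the 40th percentile. XTH19 kept its call without 2 and TBL41 without 1 of the 6 arrays left out in turn.

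Wall families held few calls. Of 17 tested trichome birefringence-like genes 1 fell, beside 0.381% of all tested probe sets, and 14 lay below 0, beside 52.7%, with a median of -0.48. In 9 of them all starved signals lay below all control signals, beside 12.0% of all tested probe sets. TBL28 (-0.80 ± 0.188, adjusted p = 0.0678 by limma) and TBL25 (-0.62 ± 0.154, 0.0804) were next. Of 8 tested xyloglucan endotransglucosylase genes 1 fell, beside the same 0.381%, and all 8 lay below 0 (7 after quantile normalization), beside 52.7%, with a median of -0.54. Among 12 expansins, which loosen walls, none was called, beside 1.09% of all tested probe sets. Their median was 0.01, with EXPA4 at 0.76 ± 0.162 (adjusted p = 0.0526) and EXPB2 at -1.28 ± 0.374 (0.117). The median over all tested probe sets was -0.03.

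AT5G62350 and AT5G62360 are direct neighbours on chromosome 5 and both encode proteins of the family of pectin methylesterase and invertase inhibitors. AT5G62350 rose from 453, 504 and 325 to 1035, 937 and 1111 (1.29 ± 0.173). AT5G62360 fell from 68.5, 58.5 and 44.4 to 18.4, 25.9 and 13.9 (-1.58 ± 0.313, or -1.05 with the pseudocount), with starved signals below the 40th percentile of their arrays. The call of AT5G62360 was lost whichever of the 6 arrays was left out (adjusted p 0.0501 to 0.15), and that of AT5G62350 without starved replicate 3 (0.054). The pair was singled out after its values were seen.

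UGT72E3, a glucosyltransferase gene of lignin alcohols, fell from 104, 102 and 132 to 59.2, 51.1 and 44.0 (-1.13 ± 0.211). UGT72E1, of the same enzyme family, had 794, 1067 and 935 in starved and 228, 423 and 476 in control roots, and with 1.37 ± 0.311 it was not called (adjusted p = 0.0631 by limma). UGT72E3 kept its call without 1 of the 6 arrays in turn. UGT72E1 belongs to a list of glycosyltransferase and glutathione transferase genes that does not hold UGT72E3. Of its 31 tested genes none was called, beside 1.09% of all tested probe sets. The next smallest p was that of GSTU28 (adjusted p = 0.0912) and the median was -0.09.

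The largest falls by size came from dim genes. AT5G19800 had 7.00, 6.43 and 5.09 in starved and 43.8, 39.96 and 40.8 in control roots (-2.76 ± 0.347, or -1.38 with the pseudocount). AT2G43600, of the chitinase family, had 3.13, 10.7 and 3.65 against 19.7, 35.7 and 24.4 (-2.38 ± 0.471, or -0.96). AT1G10810 (-2.14 ± 0.358, or -0.96) and AT5G02890 (-1.996 ± 0.336, or -1.14) fell likewise. In these 4 genes, and in 9 of the 76 called named genes in all, every array of the lower group lay below its 40th percentile, so size and rank are uncertain. Of the 4, AT5G19800 kept the call without each single array in turn, and AT2G43600 kept it without 1 of 6.

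Brighter falls included AT1G14960, of the Bet v 1 and major latex protein family, from 304, 231 and 285 to 112, 72.4 and 66.8 (-1.74 ± 0.224). That call held without any single array. AT3G57010 of the strictosidine synthase-like family (-1.70 ± 0.315), AT2G19060 (-1.63 ± 0.277), AT3G05900 (-1.42 ± 0.203), AT3G07900 (-1.33 ± 0.242) and AT1G65010 (-1.32 ± 0.226) followed. Receptor kinase genes NCRK (-0.91), AT1G51850 (-0.92) and AT5G63410 (-0.79) fell, and so did AT3G23090 (WDL3, -0.9999), of a microtubule-binding family.

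**Figure D3:**
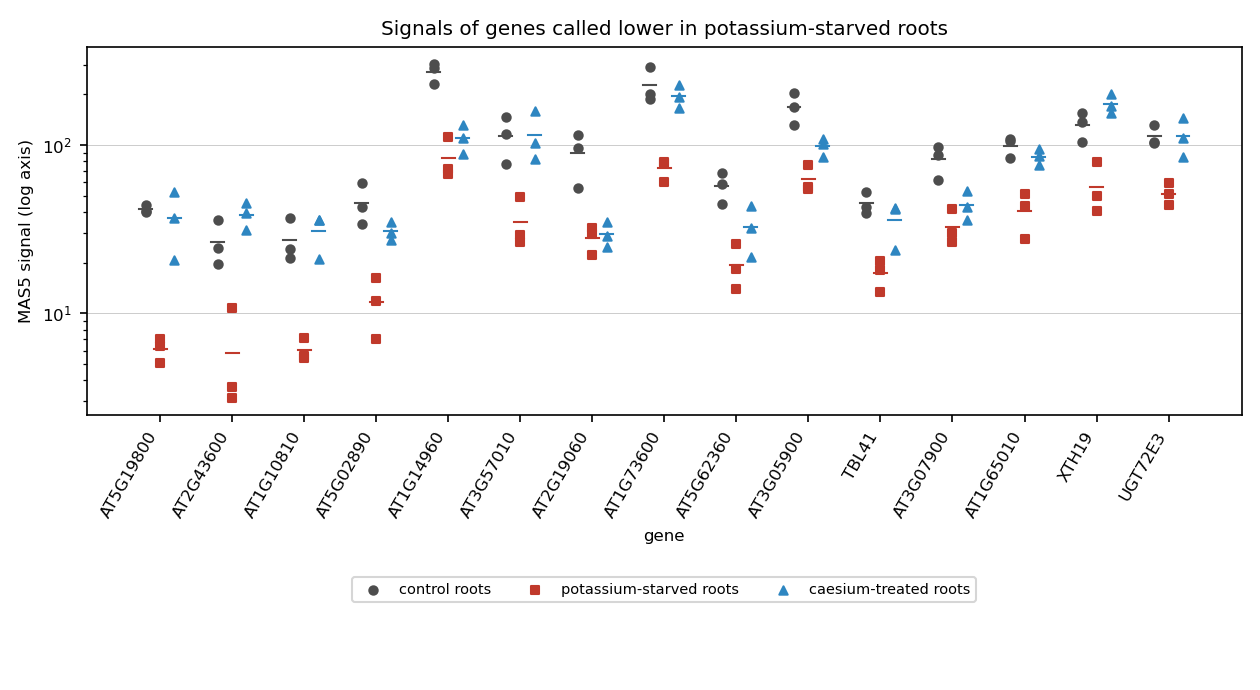
MAS5 signal on a log axis for 15 genes that fell under potassium starvation (x axis), with 1 point per array and a bar at the mean of 3 arrays for control, potassium-starved and caesium-treated roots. Starved points lie below all control points in every gene. AT5G19800, AT2G43600, AT1G10810 and AT5G02890 reach signals under 12 in starved roots.

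Other gene lists held no call, beside 1.09% of all tested probe sets called in either direction. With so few genes in each list, the lack of a call says little of them. For potassium and cation transport the 1 tested gene was CHX16, a cation/proton exchanger gene, at -0.86 ± 0.676 (adjusted p = 0.531 by limma), and the other members of that list are not analysed here. The platform annotation gave no gene for 8730 of the 22746 probe sets kept, and genes measured only by those could not enter a list. The lack of a call therefore says little of potassium transporter genes as a whole. Sugar transport and starch genes (13 tested) had a median of 0.10, with SWEET1 at 0.81 ± 0.195 (adjusted p = 0.0748) and SWEET17, a vacuolar fructose carrier gene, at -0.83 ± 0.262 (0.14). Of 8 peroxidase and oxidative stress genes SAPX was at -0.60 ± 0.218 and PRX52 at -0.88 ± 0.423, and the list median was 0.02.

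Hormone and stress lists gave small values. Abscisic acid, dehydration and cold genes (7 tested) had a median of -0.02, with AT2G44060 at -0.61 ± 0.16 (adjusted p = 0.0936 by limma) and COR15B at 0.54 ± 0.234. The ethylene genes RTE1 and EIN3 differed by 0.41 ± 0.189 and 0.25 ± 0.189 and the auxin gene IAA18 by 0.27 ± 0.174. Phenylpropanoid genes (6 tested, median 0.40) included HCT at 0.51 ± 0.134 (adjusted p = 0.0926) and CCR2 at 0.91 ± 0.282 (0.134). Among 5 glutamate receptor-like genes ATGLR1.2 was at 0.50 ± 0.244 and GLR3.5 at -0.21 ± 0.276, and among 9 cytochrome P450 genes CYP71B29 was at 0.24 ± 0.148 and CYP71B23 at -0.49 ± 0.311.

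The remaining lists likewise had no call, though called genes without a descriptive name could be missed by them. The glucosinolate genes BCAT4 and GTR2 were at 0.35 ± 0.179 and 0.39 ± 0.206, the MYB genes MYBC1 and AT5G47390 at 0.47 ± 0.151 and 0.11 ± 0.182, and the bHLH gene bHLH115 at 0.40 ± 0.12. AQI, an aquaporin interactor gene, was at -0.28 ± 0.167. The wall genes COB and PMEPCRF were at -0.49 ± 0.159 and -0.77 ± 0.279. LHCB4.1 and PRK of the shoot markers were at 0.62 ± 0.236 and 0.60 ± 0.29, and the root markers EXPA18 and PYK10 at -0.63 ± 0.182 and 0.33 ± 0.179.

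**Figure D4:**
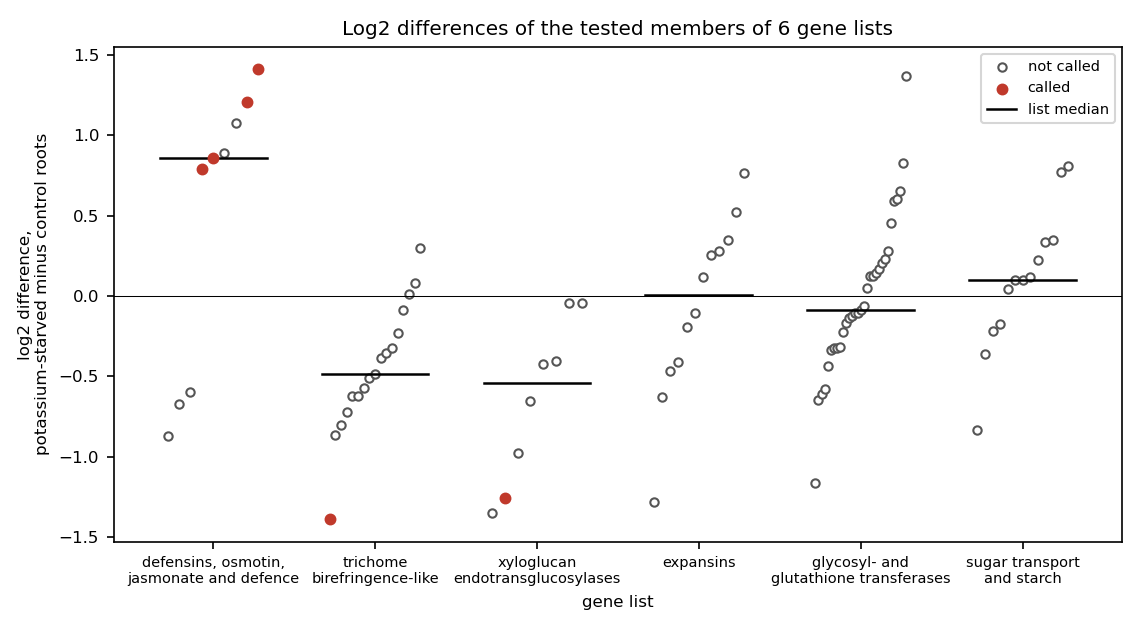
Log2 differences between potassium-starved and control roots (y axis) of every tested member of 6 gene lists (x axis), 1 point per gene, with filled points for called genes and a line at the list median. Genes of the jasmonate and defence list spread from -0.87 to 1.41, and all 8 xyloglucan endotransglucosylase genes lie below 0 (7 after quantile normalization).

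Caesium-treated roots gave a direct comparison of treatments for the 35 genes described with all signals. In all 22 of 35 were called, beside 4.54% of all tested probe sets. Of 20 rises, 13 were called higher in starved than in caesium-treated roots, and of 15 falls 9 were called lower, beside 2.27% of all tested probe sets in each direction. The starved arrays are in both contrasts, so the counts are a description. WRKY22 had 50.2, 70.3 and 56.2 and AT2G28710 39.8, 43.1 and 45.5 on the caesium arrays, and starved minus caesium was 1.81 and 2.01. XTH19 had 170, 200 and 155 there and AT1G73600 192, 228 and 166, with differences of -1.68 and -1.43. PDF1.4 had 83.6, 79.6 and 95.9 under caesium, and its difference from starved roots was 0.03 (SE 0.174, adjusted p = 0.944 by limma). AT2G19060 likewise had 24.8, 35.1 and 28.8, a difference of -0.09 (SE 0.277).

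Of the 158 called probe sets, 76 had 1 named gene, 47 higher and 29 lower, and 82 had none or several, 56 higher and 26 lower. The largest rise among probe sets without a gene ran from 98.6, 44.1 and 39.0 to 601, 402 and 518 (3.18 ± 0.365). The largest such fall ran from 38.4, 33.8 and 37.0 to 2.24, 2.24 and 2.21 (-4.03 ± 0.671), where the starved signals are near the bottom of the scale. The adjusted p-values lay close together at the threshold. The 5 called genes nearest to it had adjusted p from 0.0467 for AT3G23090 to 0.0495 for AT3G06890. The 5 uncalled genes nearest to it ran from AT2G17340 at 0.0504 (-0.72) to AT1G52140, AT5G60760 and IRX15-L at 0.0520 (0.89, -0.91 and -0.64), with AT4G18950 at 0.0519 (1.41).

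Single arrays moved the count of 158. It was 31 without starved replicate 3, 38 without starved replicate 2, 87 without control replicate 1, 109 without control replicate 2, 146 without control replicate 3 and 222 without starved replicate 1. Among called lower probe sets the starved array nearest to the controls was replicate 1 in 33 of 55, replicate 2 in 14 and replicate 3 in 8. Among called higher probe sets it was replicate 1 in 44 of 103, replicate 2 in 27 and replicate 3 in 32. Of the 76 named genes 13 stayed called without each of the 6 arrays in turn. Every other named call was lost without at least 1 of them. The 13 were AT3G12900, AT3G61930, ASPGB1, AT4G33666, AT5G01720, WRKY22, PDF2.1, ATL8, AT5G38820 and AT2G46600 among the rises and AT1G73600, AT1G14960 and AT5G19800 among the falls. With 3 arrays a group an exact two-sided permutation test of a single gene cannot give a p under 0.1, so the calls rest on the spread that limma shares between genes.

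The response of the same 35 genes differed between roots and shoots in 11, beside 8.37% of 16397 probe sets tested on all 18 arrays. The root minus shoot difference was positive in 3, beside 4.26%, and negative in 8, beside 4.11%. Since the 35 genes were chosen on the same root arrays, these counts are a description. XTH19, which fell in roots, went from a mean of 32.3 in control to 165 in starved shoots (root minus shoot -3.59 ± 0.443, adjusted p = 0.000195 by limma).

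**Figure D5:**
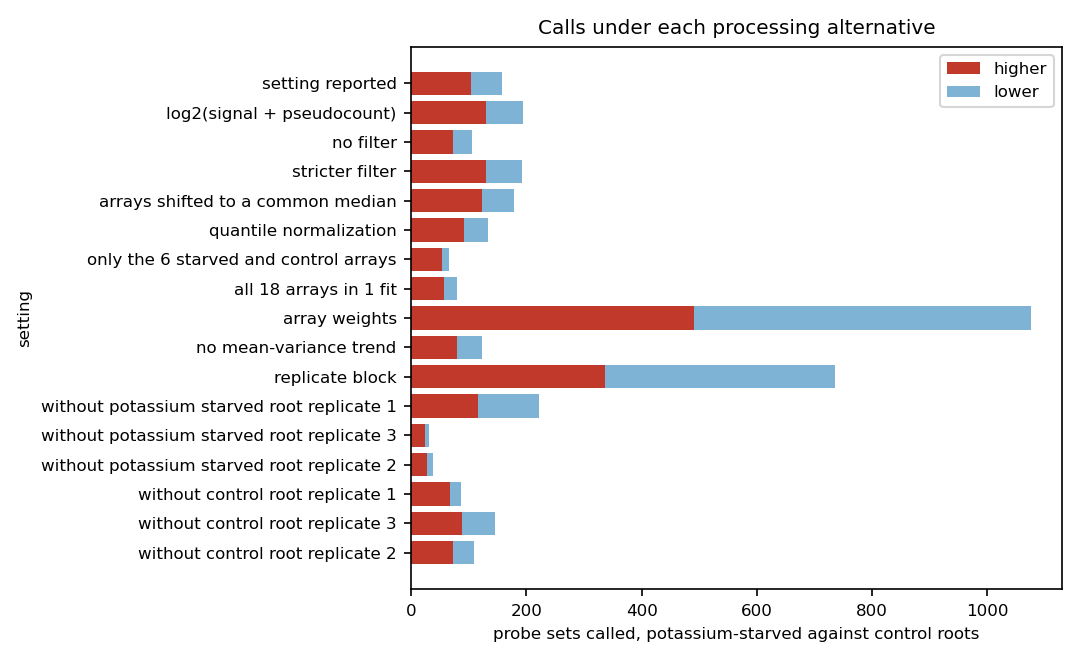
Number of probe sets called between potassium-starved and control roots (x axis) under each processing alternative (y axis), split into higher and lower. The setting reported gives 158; the counts run from 31 without potassium-starved replicate 3 to 1076 with array weights.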

How the data were processed

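For each Affymetrix ATH1 array the deposited table holds a signal intensity for every probe set. Per the submitters' processing notes these come from MAS5, whose version and settings the sources used here do not name. Each array's mean, trimmed by 2% at each end, was close to 100, so arrays had been scaled before deposit. MAS5 subtracts mismatch signal, so dim values vary widely once logged. With arrays, precision is set by how many there are.

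The 64 AFFX probe sets were left out of 22810. Of the 22746 kept, 13513 had 1 gene in the platform annotation, and 13436 of these matched a RefSeq gene (TAIR10.1), which supplied symbols and gene order. Signals were taken to log2 as deposited. Tested probe sets had to pass their array's own 40th percentile on 3 or more of the 9 root arrays. limma 3.58.1 in R 4.3.3 (lmFit, eBayes with a mean-variance trend) was fitted to the 9 root arrays, which share 1 estimate of the spread, and to all 18 arrays for the root minus shoot difference. Tests were two-sided, adjusted by Benjamini-Hochberg over all probe sets tested. Arrays were also simulated for the same 14432 probe sets, with independent normal noise of the same spread on every array. There 54% of 2-fold and 98% of 4-fold changes were recovered, with 10 false calls among unchanged probe sets. The real arrays differed in weight (0.561 to 3.79), so these rates may not hold for them.

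Any called probe set with 1 gene could be named. The 15 largest rises and falls and called list members are given with all signals (the later iron list aside), and where a list had no call, the 2 tested members with the smallest p are given. Other uncalled list members named, and the signals of further called genes, were chosen after their values were seen. A gene's brightest probe set was used. Members and lists were chosen with earlier results of these data known. Of 30 lists, matched by symbol, locus or words in the names, 3 matched no gene (heat shock proteins, lipid transfer and suberin, C2H2 zinc fingers). Genes without a descriptive name in the annotation could be missed by a list. AT1G53540, AT4G22610 and AT2G28710 were tested and called but are on none of these 3 lists. Patterns and symbols found to catch unrelated genes were corrected, a list of 57 iron-responsive loci was added and the wall list was split by family after the data were seen. The promoter search set in the design was not run, since promoter sequences were not used here.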

Additional observations from a re-analysis of the deposited data

Results flagged for a closer look

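The response to potassium starvation differed between roots and shoots in 11 of the 35 genes described with all signals, by limma's test of the difference (adjusted p under 0.05, 8.37% of 16397 probe sets tested). These genes were chosen on the same root arrays, so their number is given as a description. Values are the root response minus the shoot response on the log2 scale.

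The difference was positive in 3 genes. It was 2.56 ± 0.381 (SE, adjusted p = 0.000929 by limma) for the coumarin hydroxylase gene AT3G12900, whose shoot signals were 24.0 ± 8.77 (SD, n = 3) in control and 27.7 ± 3.48 in starved plants. It was 2.15 ± 0.622 for the small heat shock gene AT1G53540, which was dim in shoots. It was 2.36 ± 0.277 for AT4G33666, whose shoot mean was 482 in control and 317 in starved plants.

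It was negative in 8 genes. AT3G13610, the other coumarin hydroxylase gene, had -4.23 ± 0.933 (adjusted p = 0.0119 by limma), with 12.9 ± 10.1 (SD, n = 3) in control and 291 ± 61.5 in starved shoots. Its control shoot signals were dim and varied widely, so the size is uncertain. PDF2.1 had -3.52 ± 0.781, from 1.49 to 41.0 in shoots, where the control level is close to the bottom of the scale. AT2G28710 had -1.75 ± 0.304, from 23.3 to 208 in shoots. XTH19, which fell in roots, had -3.59 ± 0.443 and went from 32.3 ± 8.55 to 165 ± 55.3 in shoots. AT2G19060 (-1.88), AT1G14960 (-1.92), AT1G10810 (-2.39) and AT5G19800 (-2.66) fell in roots and had shoot means under 20 in both groups. For AT1G10810 (4.79 in control and 6.44 in starved shoots) and AT5G19800 (2.70 and 2.66) these were near the bottom of the scale. A fall in shoots could hardly show there.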

How the results depend on the processing

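The count of 158 called probe sets was 105 without the filter, 66 with the 6 starved and control arrays alone, 80 with all 18 arrays in 1 fit, 1076 with array weights and 735 with the replicate number as a block, and 31 to 222 when single arrays were left out. Array weights gave starved replicate 3 a weight of 3.79 and starved replicate 1 one of 0.561. A pseudocount of 16 (194), a filter at the 60th percentile (193), a shift to common medians (179), quantile normalization (133) and no trend (122) stayed within 1.5 times. Genes of the lists called numbered 15, and 9 without the filter, 8 with 6 arrays, 5 with 18 arrays, 41 with array weights, 39 with the replicate block and 7 to 15 without single arrays. Of the 76 named genes, 11 were called under every alternative that tested them and none reversed under any. Over 1205 pairs of gene and alternative 780 kept the call and 425 lost it. The 22 of 35 genes called between starved and caesium-treated roots were 13 to 22 without single arrays, and the 11 of 35 called between roots and shoots were 19 with the pseudocount and 8 to 12 without single arrays, root and shoot arrays alike; alternatives for these were chosen after seeing the data. The cause of these changes was not tested. The same-numbered starved and control arrays deviated from their group means with correlations of 0.506, 0.157 and -0.051 for replicates 1, 2 and 3. The first is the highest of all starved and control pairs, while starved replicate 3 correlated best with control replicate 2 (0.432). Sample titles number the arrays in runs by replicate. Whether the numbers pair the samples cannot be told from these values, and the fit reported has no block. With the block all 158 calls were kept.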
